A study of Homo sapiens with 38 samples.

Results

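Naive human pluripotent stem cells exit their naive state when the inhibitors that hold them are withdrawn, and the medium they are moved into can be plain or can carry growth factors. Here the transcriptome after 8 days in E8, a defined medium with growth factors, was compared with that after 8 days in unsupplemented N2B27. The libraries were chosen by their labels, with earlier results of these data known. They were 2 libraries of E8 day 8 and 2 of N2B27 day 8, which is 4 of the 38 libraries of the series. All 4 came from Shef6, a single human embryonic stem cell line that had been adapted to grow naive on a coating of serum in PXGL, which is N2B27 with the MEK inhibitor PD0325901, the tankyrase inhibitor XAV939, the protein kinase C inhibitor Gö6983 and human LIF. For differentiation the cells were plated on Geltrex, a basement membrane extract, with a ROCK inhibitor in the medium until day 1, and were then kept in N2B27 or, in its place, in E8. Cells in both media had therefore left the same inhibitors and lay on the same coating. The 2 media differ in more than their growth factors, since E8 also lacks the N2 and B27 supplements and Neurobasal, so single components cannot be told apart. Cells plated in mTeSR, another growth factor medium, the day 4 and day 6 libraries of both media and the 2 libraries of naive cells in PXGL on Geltrex from the same experiment served as points of reference. The other 4 naive libraries, 2 on serum and 2 on Geltrex from a second experiment, entered the shared fit, and the naive levels given below leave them out.

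E8 supplies FGF2 and TGFβ with insulin, transferrin, selenium and ascorbate. FGF acts through ERK, and TGFβ, Activin and Nodal act through SMAD2 and SMAD3. Together these signals are used to keep primed human pluripotent stem cells undifferentiated. N2B27 supplies neither factor, and cells in it rely on the FGF, Nodal, WNT and BMP ligands that they make. In the embryo, WNT, BMP and Nodal together induce the primitive streak in the epiblast, from which mesoderm and definitive endoderm arise, whereas BMP without Nodal goes with amnion and other extraembryonic fates.

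RNA was measured with QuantSeq, which reads a tag at the 3′ end of transcripts. Levels of a gene were compared between media as CPM, its count divided by the scaled size of the library. The N2B27 day 8 libraries held 4383985 and 5215461 counts over 24334 and 25263 detected genes, and the E8 day 8 libraries 5350385 and 4240390 counts over 25447 and 23704 genes. At this depth a group of 2 libraries with 0 counts allows a level of up to 0.298 CPM in N2B27 and 0.313 CPM in E8 (3 counts over the group, counting error only). Mitochondrial transcripts took 2.26% to 2.64% of counts and ribosomal protein genes 9.48% to 11.4% in these 4 libraries. E8 replicate 1 stood apart from the other 3 of these libraries. Processed pseudogenes (retrotransposed gene copies without introns) took 1.06% of its counts against 0.855% in E8 replicate 2 and 0.829% and 0.849% in N2B27, while the 37 other libraries of the series ranged from 0.777% to 1.39%. Ribosomal protein genes took 11.4% of its counts against 10.2% in E8 replicate 2 and 9.48% and 9.73% in N2B27, the 13 tested cytochrome c oxidase genes summed to 3970 CPM against 2765, 2541 and 2380 CPM, and it had the most detected genes. Values without this library are given beside several results. The replicates are parallel libraries of 1 experiment, called technical in one place of the study and biological in another, so p-values measure only the spread between such libraries, which may be technical.

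Of 57133 genes in the table, 16674 were tested, and 1216 were called different between E8 and N2B27 at day 8 (7.29% of those tested). A call required a Benjamini-Hochberg adjusted p under 0.05 in edgeR's quasi-likelihood test and a log2 fold change over 1 in size. In E8, 556 genes were higher (3.33%) and 660 lower (3.96%), and the median log2 fold change over all tested genes was 0.00966. The genes lower in E8 were mainly protein coding (84.2% of them, against 77.3% of tested genes), and they held regulators of the primitive streak, mesoderm and endoderm. Of the genes higher in E8, 56.3% were protein coding, 16.2% were processed pseudogenes and 22.1% had a clone-based name or other symbol that matched no single gene of the annotation. Among tested genes processed pseudogenes were 4.84% and such unmatched symbols 13.5%, and among genes lower in E8 1.06% and 9.85%. In 1174 of the 1216 called genes the libraries of both media did not overlap, as was also so in 55.99% of all tested genes, so that non-overlap with 2 libraries a medium says little alone. Without E8 replicate 1 the count of called genes was 778, without N2B27 replicate 1 it was 761, and it was 1398 without E8 replicate 2. Below, ± gives the standard error of a log2 fold change of E8 against N2B27, with 2 libraries in each medium, and "lower", "higher" and "called" follow this rule.

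**Figure D1:**
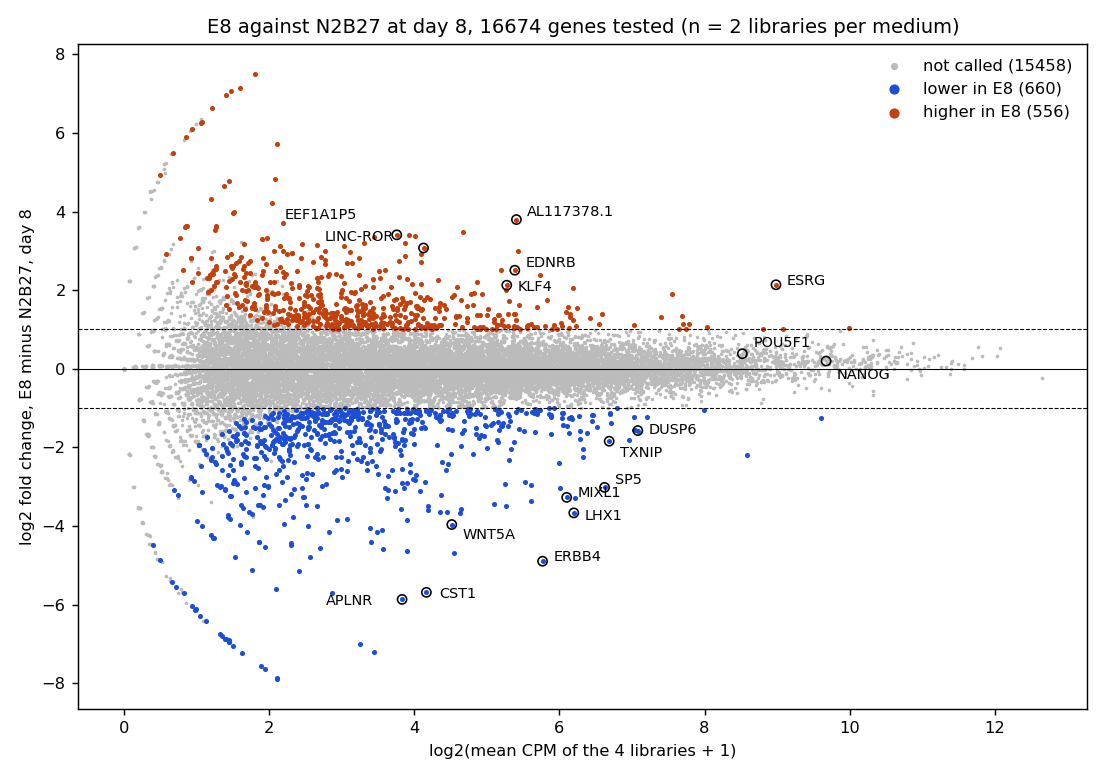
Log2 fold change of E8 against N2B27 at day 8 (vertical axis) against log2 of the mean CPM of the 4 libraries plus 1 (horizontal axis) for 16674 tested genes. Blue points are the 660 genes called lower in E8 and orange points the 556 called higher, dashed lines mark a log2 fold change of 1 in size, and ringed points are named. LHX1, MIXL1 and SP5 lie below -3, and the curved edges at the left are genes with 0 counts in a medium, whose fitted fold depends on the prior count.

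Genes of the primitive streak and of mesoderm were lower in E8 with few exceptions. Of 21 listed genes 18 were tested, and 15 were lower and 1 higher in E8, with a median log2 fold change of -3.11 (-2.93 with FOXF1, which had 0 counts in E8, set to its bound, and -2.79 without E8 replicate 1). The list also holds FOXA2, GATA4 and HAND1, which also stand in the endoderm or the amnion list. MIXL1 was at 145 and 100.1 CPM in N2B27 and 12.7 and 12.5 CPM in E8, and this homeobox gene of the nascent mesendoderm thus fell 9.67-fold (-3.27 ± 0.21, adjusted p = 6.44e-13). LHX1 was at 151 and 118 CPM in N2B27 and 10.7 and 10.4 CPM in E8, a 12.7-fold difference in this LIM homeobox gene of the anterior streak (-3.67 ± 0.30, adjusted p = 1.14e-10). EOMES was at 74.5 and 56.4 CPM in N2B27 and 8.06 and 8.95 CPM in E8 (-2.94 ± 0.27, adjusted p = 1.25e-09), and it encodes a T-box factor needed for endoderm and mesoderm. For all 3 genes both N2B27 libraries lay several times above both E8 libraries. TBXT, which encodes Brachyury and is the classic streak marker, was at 65.7 and 60.3 CPM in N2B27 and still at 14.4 and 16.5 CPM in E8 (-2.03 ± 0.22, adjusted p = 4.99e-08). The transcripts of the streak were thus lower but detected in E8.

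Some further genes of the list were close to the detection limit in E8. APLNR, the apelin receptor of nascent mesoderm, was at 31.5 and 20.6 CPM in N2B27 and 0.562 and 0.235 CPM in E8, the largest fall among genes of at least 20 CPM (-5.87 ± 0.51, adjusted p = 4.44e-10). HAND1, a basic helix-loop-helix factor of extraembryonic mesoderm and amnion, was at 20.3 and 15.4 CPM against 1.12 and 0.942 CPM (-4.06 ± 0.54, adjusted p = 2.61e-06). EVX1, a homeobox gene of the posterior streak, was at 12.3 and 8.85 CPM against 0.562 and 0.235 CPM (-4.57 ± 0.49, adjusted p = 5.18e-08). FOXF1 had 0 counts in both E8 libraries and was at 2.42 and 2.35 CPM in N2B27. With E8 set to its limit of 0.313 CPM it was 7.61-fold lower, and its call was lost with DESeq2 (adjusted p = 0.132). These transcripts were low even in N2B27, so the groups are apart while the size of the fold is uncertain. For CDX1 and MESP2, with 3 and 2 counts in E8 against 38 and 31 in N2B27, the ratio of N2B27 to E8 was 12.05 (95% exact interval 3.82 to 61, counting error only) and 14.7 (3.75 to 127.1). TBX3 (-2.25), GSC (-2.62), GATA4 (-2.03) and the hyaluronan synthase gene HAS2 (-1.22) were lower as well. KDR at 29.7 and 26.2 CPM in N2B27 and 24.9 and 24.5 CPM in E8 and PDGFRB at 7.93 and 7.59 and 7.49 and 7.06 CPM, both receptors of mesodermal derivatives, were not called. The exception was ACTC1, the cardiac alpha actin, which was higher in E8 at 141 and 134 CPM against 51.8 and 52.4 CPM (1.4 ± 0.16, adjusted p = 5.26e-08). Leaving out E8 replicate 1 left 13 members lower, the calls of MESP2 (adjusted p = 0.17) and FOXF1 (adjusted p = 0.053) being lost, and without N2B27 replicate 1 MESP2 was not called either (adjusted p = 0.11).

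Endoderm genes were lower too, and no tested member was higher. Of 14 listed genes 12 were tested and 10 were lower, with a median of -2.74. SOX17 was at 58.4 and 63 CPM in N2B27 and 6.56 and 4.47 CPM in E8 (-3.44 ± 0.26, adjusted p = 6.47e-11), and it encodes a SOX factor that defines early endoderm. GATA6 was at 31.3 and 32.2 CPM in N2B27 and 3.0 and 2.59 CPM in E8 (-3.48 ± 0.29, adjusted p = 5.13e-10), and its neighbour GATA6-AS1, a long noncoding RNA (GRCh38, chromosome 18, 22164886 to 22169878, minus strand), was at 31.5 and 21.9 against 0.749 and 1.41 CPM. FOXA2, a forkhead factor of anterior streak and endoderm, was at 43.6 and 28.2 CPM against 3.0 and 2.59 CPM (-3.66 ± 0.35, adjusted p = 9.24e-09). In each of these the E8 libraries lay near or below 7 CPM and the N2B27 libraries above 20 CPM. CXCR4, the chemokine receptor used to sort definitive endoderm, was at 103 and 74.4 CPM against 32.2 and 23.1 CPM (-1.67 ± 0.18, adjusted p = 4.44e-08), and PDGFRA (-1.61) and HHEX (-1.85) fell less steeply. The apolipoprotein gene APOA1 had 195 counts in N2B27 and 1 in E8, a ratio of 185.4 with an exact interval of 32.9 to 7361, and HNF4A had 64 counts and 1, a ratio of 60.9 (10.5 to 2441). The cystatin gene CST1 was at 33 and 33.6 against 1.12 and 0 CPM and its close paralog CST2 at 24 and 17.7 against 0.937 and 0.706 CPM, and their near-identical sequences make the split of reads between them uncertain. COL4A1 and SERPINE2, which other cell types also express, were not called (-0.38 and -0.15). Only HHEX lost its call without E8 replicate 1 (adjusted p = 0.079), and the other 9 were called whichever library was left out. In bulk RNA, fewer cells of a type and less RNA per cell cannot be told apart, here and in all results that follow.

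The sequences before the start sites of 3 genes are shown, because their transcripts fell in E8 and WNT and Nodal signals are known to act on them: MIXL1, SP5 (a zinc finger target of WNT and Nodal signals) and CER1 (a secreted antagonist of Nodal, BMP and WNT), which were picked after their values were seen. They give the 250 bases up to the start site from RefSeq (GRCh38.p14), 5′ to 3′ on the strand of the gene, in lower case. Capitals mark matches on either strand. For TCF/LEF the letters searched were CTTTGAA first, then CTTTGAT as its first variant and CTTTGTT as the other, and for FOXH1 they were AATNCACA.
MIXL1 (chr1:226223414-226223663, plus strand): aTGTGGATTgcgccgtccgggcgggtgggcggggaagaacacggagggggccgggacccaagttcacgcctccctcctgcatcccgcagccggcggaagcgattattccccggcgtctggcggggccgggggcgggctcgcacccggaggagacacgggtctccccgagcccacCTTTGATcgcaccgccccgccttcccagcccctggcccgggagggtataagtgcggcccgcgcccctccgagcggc
SP5 (chr2:170715087-170715336, plus strand): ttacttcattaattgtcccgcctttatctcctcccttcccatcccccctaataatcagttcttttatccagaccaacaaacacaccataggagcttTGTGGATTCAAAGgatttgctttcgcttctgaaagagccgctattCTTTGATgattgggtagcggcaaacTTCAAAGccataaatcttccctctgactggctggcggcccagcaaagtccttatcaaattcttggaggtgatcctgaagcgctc
CER1 (chr9:14722734-14722983, minus strand): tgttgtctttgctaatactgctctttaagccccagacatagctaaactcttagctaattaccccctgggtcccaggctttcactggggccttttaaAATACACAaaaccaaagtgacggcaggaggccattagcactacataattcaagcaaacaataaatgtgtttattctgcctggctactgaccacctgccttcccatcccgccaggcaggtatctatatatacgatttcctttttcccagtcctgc
The window of SP5 held 3 TCF/LEF matches, at -148 to -142, -109 to -103 and -84 to -78 from the start site, and 1 FOXH1 match at -154 to -147 that overlaps the first of them. MIXL1 held 1 TCF/LEF match at -76 to -70 and 1 FOXH1 match at -249 to -242, and CER1 held 1 FOXH1 match at -154 to -147. A TCF/LEF match was present in 11% of 438 windows of genes lower in E8 that had one, in 7.69% of 260 of genes higher, in 6.29% of 10818 of tested genes and in 10.1% of all 27305. For FOXH1 these shares were 1.83%, 2.69%, 1.41% and 2.83%. Such matches are a description of letters and not of binding.

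Many listed WNT pathway genes were lower in E8 and none on this list was higher. Of 25 listed genes 21 were tested and 12 were lower, with a median of -1.09. SFRP2, a secreted WNT modulator counted with the primed genes, was higher (1.39). SP5 was at 179 and 169 CPM in N2B27 and 26 and 16.2 CPM in E8 (-3.02 ± 0.23, adjusted p = 3.40e-11), a gap of 8.11-fold. AXIN2, the feedback gene that WNT induces in most tissues, was at 42.1 and 54.4 CPM against 19.9 and 25.9 CPM (-1.09 ± 0.20, adjusted p = 2.04e-04). Its difference was close to the threshold, and without E8 replicate 1 or N2B27 replicate 2 it fell short at -0.90 and -0.89. Among ligands, WNT5A was at 42.5 and 39.7 CPM in N2B27 and 2.62 and 2.59 CPM in E8 (-3.96 ± 0.36, adjusted p = 8.56e-10), whereas WNT3 at 18.9 and 15.5 and 10.1 and 8.01 CPM (-0.91) and WNT5B (-0.35) were not called. RSPO3, a secreted enhancer of WNT signals, had 122 counts in N2B27 and 2 in E8 (ratio 58, exact interval 15.7 to 484.4). The secreted antagonist gene SFRP1 fell along with the ligand, at 74.9 and 62.1 CPM against 5.99 and 6.12 CPM (-3.49 ± 0.19, adjusted p = 1.14e-14). The antagonist gene DKK1 was at 3.30 and 2.71 CPM in N2B27 and had 0 counts in E8. With E8 set to its limit of 0.313 CPM it was 9.51-fold lower, and its call was lost with DESeq2 (adjusted p = 0.173). Among receptor genes, FZD5 at -0.06, FZD7 at 0.44 and LRP6 at 0.02 were not called, whereas LGR5 was lower (-3.03). LEF1, FRZB, NKD1, RNF43 and SP8 were lower too and, like LGR5, lay at mean levels under 30 CPM in N2B27. The call of RNF43 was lost with each library left out in turn and with DESeq2. Those of LEF1, FRZB and NKD1 were lost without E8 replicate 1 and with DESeq2, and that of LGR5 with DESeq2. SP8 fell short of the fold without E8 replicate 2 (-0.84) and without N2B27 replicate 2 (-0.90). The count of lower members depended on the method: DESeq2 called 6 of the 12, and leaving out 1 library at a time left 8 to 10, with 8 without E8 replicate 1.

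Genes of the Nodal and Activin pathway divided. Of 14 tested members 4 were lower and none higher, with a median of -0.28 (-0.19 without E8 replicate 1 and -0.50 without E8 replicate 2). The ligand gene NODAL was at 148 and 137 CPM in N2B27 and 131 and 129 CPM in E8 and was not called (-0.13 ± 0.16, adjusted p = 0.63), nor were the FOXH1 gene (-0.01) and the inhibitor genes LEFTY1 and LEFTY2. LEFTY1 was at 158 and 168 CPM against 198 and 156 CPM, with overlapping libraries, and LEFTY2 at 30.8 and 25.3 CPM against 17.6 and 19.8 CPM, although reads may not separate this closely related pair. In contrast CER1 was at 34.8 and 28.5 CPM in N2B27 and 2.62 and 2.59 CPM in E8 (-3.59 ± 0.36, adjusted p = 9.68e-08). The receptor gene ACVR1B was also lower (-1.44 ± 0.21, adjusted p = 6.72e-06), as was CFC1, a NODAL coreceptor of low level (-3.47 ± 0.84, adjusted p = 0.004), whose call was lost without E8 replicate 1 (adjusted p = 0.09). The other coreceptor, TDGF1, was at 432 and 301 CPM in E8 against 196 and 217 CPM and did not reach the fold (0.83 ± 0.13, adjusted p = 1.49e-05). Of 17 genes known to respond to TGFβ, 2 were higher and 3 lower, and the median of 0.04 was near that of all genes (-0.13 without E8 replicate 2). THBS1 (thrombospondin) was at 32.4 and 35.1 CPM in E8 against 13 and 13.7 CPM (1.33 ± 0.21, adjusted p = 1.65e-05), and CTGF was at 314 and 221 CPM against 111 and 155 CPM (1.01 ± 0.18, adjusted p = 9.45e-05). FN1, ITGA5 and BHLHE40 were lower, but without E8 replicate 1 none of these 3 was called, and CTGF, whose fold was 2.01, was not called with library totals as scale (0.93), without E8 replicate 1 (0.73) or without N2B27 replicate 1 (0.79).

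BMP genes and markers of trophectoderm and amnion were mostly lower where they were called. Of 16 tested BMP genes 6 were lower and 1 higher, with a median of -0.52. BMP2 was at 48.9 and 39.6 CPM in N2B27 and 3.18 and 4.24 CPM in E8 (-3.58 ± 0.26, adjusted p = 1.36e-11), while BMP4 was at 172 and 156 CPM and 215 and 206 CPM and was not called (0.36 ± 0.13, adjusted p = 0.040). The targets split likewise, with ID2 at 150.5 and 104 CPM against 32.2 and 29 CPM (-2.05 ± 0.17, adjusted p = 8.63e-11), ID3 at -0.74 and ID1 at -0.13, the latter 2 not called. The homeobox targets MSX1 (-2.18) and MSX2 (-1.97) were lower, as was the antagonist gene NOG, at 23.8 and 14.8 CPM against 0.749 and 1.41 CPM (-4.16 ± 0.42, adjusted p = 1.07e-08). SMAD9, which encodes a BMP receptor SMAD, was lower at low level (-1.54), but not without E8 replicate 1 (adjusted p = 0.299) or N2B27 replicate 1 (0.219). Another antagonist gene, GREM1, moved the other way, at 35.4 and 29.9 CPM in E8 against 11.5 and 14.6 CPM (1.32 ± 0.20, adjusted p = 9.12e-06). Of 15 tested genes of trophectoderm and amnion 7 were lower and 1 higher, with a median of -1.18. CDX2 had 167 counts in N2B27 and 1 in E8 (ratio 158.8, exact interval 28.1 to 6310), and GATA3 was at 39.4 and 34 CPM against 10.3 and 14.8 CPM (-1.56 ± 0.23, adjusted p = 9.56e-06). GATA2, TFAP2A and ISL1 were lower but lay below 8 CPM in all 4 libraries. Without E8 replicate 1 the calls of TFAP2A (adjusted p = 0.405) and ISL1 (0.105) were lost, that of TFAP2A also without N2B27 replicate 1 (0.169) or 2 (0.0789), and that of GATA2 without E8 replicate 2 (0.0974) or N2B27 replicate 2 (0.13). KRT19 (-1.18) and HAND1 were also lower, KRT18 (-0.03) and TFAP2C (0.35) were not called, and IGFBP3 was higher (2.00 ± 0.34, adjusted p = 8.99e-05). For the defining markers alone, 5 of 7 tested of trophectoderm and amnion, 6 of 6 of endoderm and 5 of 5 of streak and mesoderm were lower in E8. Their summed levels were 80.2 and 66.8, 177.8 and 157.9, and 336.9 and 252.7 CPM in N2B27 against 16.1 and 22.8, 22.7 and 18.4, and 36.9 and 39.1 CPM in E8.

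Neural ectoderm and fibroblast markers did not form a common direction. Of 13 tested neural genes 1 was higher and 2 lower (median -0.08), and of 6 defining markers of neural ectoderm and crest 2 were tested and not called, with summed levels of 3.97 and 5.06 CPM in N2B27 and 3.75 and 4.0 CPM in E8. NEFM, a neurofilament gene, was at 22.3 and 15.8 CPM in E8 against 5.07 and 3.97 CPM (2.09 ± 0.28, adjusted p = 2.27e-06), and NTS, the neurotensin precursor, at 61.3 and 47.3 CPM against 201 and 182 CPM (-1.81 ± 0.15, adjusted p = 3.77e-10). ZIC1, under 4 CPM in all 4 libraries, was lower (-1.38), but not without E8 replicate 1 (adjusted p = 0.333) or N2B27 replicate 2 (0.286). Of 10 tested fibroblast and mesenchyme genes 2 were lower, namely COL1A2 at 138 and 143 CPM against 66.1 and 63.1 CPM (-1.12 ± 0.13, adjusted p = 1.21e-07) and COL3A1 at 2.86 and 3.61 CPM against 0 counts. With E8 set to its limit of 0.313 CPM COL3A1 was 10.5-fold lower, and its call was lost with DESeq2 (adjusted p = 0.232). LUM, DCN, PRRX1 and FAP were too low to be tested, and the summed level of the defining fibroblast markers was 145.2 and 149.9 CPM in N2B27 against 70.3 and 66.4 CPM in E8.

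FGF and ERK genes were called in both directions. Of 24 tested genes 2 were higher and 2 lower, and the median was 0.08. DUSP6, the ERK phosphatase that FGF signals induce, was at 205 and 197 CPM in N2B27 and 63.7 and 71.6 CPM in E8 (-1.57 ± 0.15, adjusted p = 3.55e-09). EGR1, an immediate early gene, was lower as well (-1.12 ± 0.24, adjusted p = 9.36e-04), and -0.97 without N2B27 replicate 1. By contrast the ETS factor genes ETV1, at 99.8 and 86.2 CPM in E8 against 40.1 and 49.7 CPM (1.05 ± 0.13, adjusted p = 8.17e-07), and ETV4, at 75.5 and 80.8 against 36.8 and 40.5 CPM (1.01 ± 0.18, adjusted p = 1.49e-04), were higher, both by just over the threshold. ETV4 and ETV1 fell under a log2 fold change of 1 with library totals as scale (0.94 and 0.98) and without N2B27 replicate 1 (0.95 and 0.91), ETV1 also without E8 replicate 1 (0.94) and ETV4 without E8 replicate 2 (0.96). The feedback genes SPRY2 (-0.41), SPRY4 (0.31) and ETV5 (0.35) were not called. The FGF2 transcript itself was at 465 and 421 CPM in E8 and 233 and 251 CPM in N2B27 (0.87 ± 0.09, adjusted p = 2.17e-08), short of a call, and the receptor genes FGFR1 to FGFR4 lay between -0.41 (FGFR1) and 0.41 (FGFR3).

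Core pluripotency genes remained expressed in both media. None of the 5 was called, and their median was 0.20. NANOG was at 802 and 721 CPM in N2B27 and 867 and 878 CPM in E8, with SALL4 at 306 and 299 against 261 and 263 CPM and LIN28A at 619 and 529 against 612 and 538 CPM. POU5F1 (OCT4) was at 275 and 359 CPM in N2B27 and at 269.6 and 561 CPM in E8, so that the E8 replicates lay on both sides of N2B27. SOX2 was at 297 and 387 CPM in E8 against 209 and 226 CPM, without overlap but below the fold threshold (0.65 ± 0.11, adjusted p = 1.11e-04). Naive markers were in part still present in both media and differed one by one. Of 16 tested 1 was higher and 2 lower, with a median of -0.43 (-0.70 with SPIC, at 0 counts in N2B27 and 1 in E8, left out). KLF4 was at 64.8 and 57.9 CPM in E8 against 12.8 and 15.2 CPM in N2B27 (2.13 ± 0.19, adjusted p = 5.23e-10), while in naive cells on Geltrex it was at 109 and 110.4 CPM. SUSD2, a surface marker of naive cells, was at 12 and 11.8 CPM against 29.3 and 44.3 CPM (-1.64 ± 0.21, adjusted p = 7.39e-07) and KHDC1L at 46.6 and 49.2 CPM against 116 and 152 CPM (-1.49 ± 0.17, adjusted p = 6.08e-08), both thus lower in E8. KLF17 (0.64), TFCP2L1 (-0.14), DPPA3 (-0.16), KLF5 (-0.91) and NLRP7 (-0.87) were not called. The calls of KLF4, SUSD2 and KHDC1L held with each library left out.

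Of 14 tested formative and primed genes 1 was higher and 2 lower, and their median of 0.57 was above that of all genes without most members reaching the fold. SFRP2, a secreted WNT modulator that marks primed cells, was higher at 63.1 and 53.4 CPM against 22 and 22.6 CPM (1.39 ± 0.16, adjusted p = 1.14e-07). ZIC2, a zinc finger gene of the formative and primed epiblast, was at 74.6 and 71.3 CPM in E8 and 154 and 139.6 CPM in N2B27, and its log2 fold change of -1.01 passed the threshold by little. It was -0.98 without E8 replicate 2 and -0.94 without N2B27 replicate 1. The other lower member was DUSP6, a target of ERK described above. DNMT3B, the de novo DNA methyltransferase, was at 923 and 921 CPM against 563 and 620.5 CPM (0.64 ± 0.10, adjusted p = 2.46e-05), and THY1 (0.72), CD24 (0.83), PTPRZ1 (0.64) and SALL2 (0.28) pointed the same way without a call. CDH2 (-0.47) and OTX2 (-0.81) had the opposite sign and no call.

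**Figure D2:**
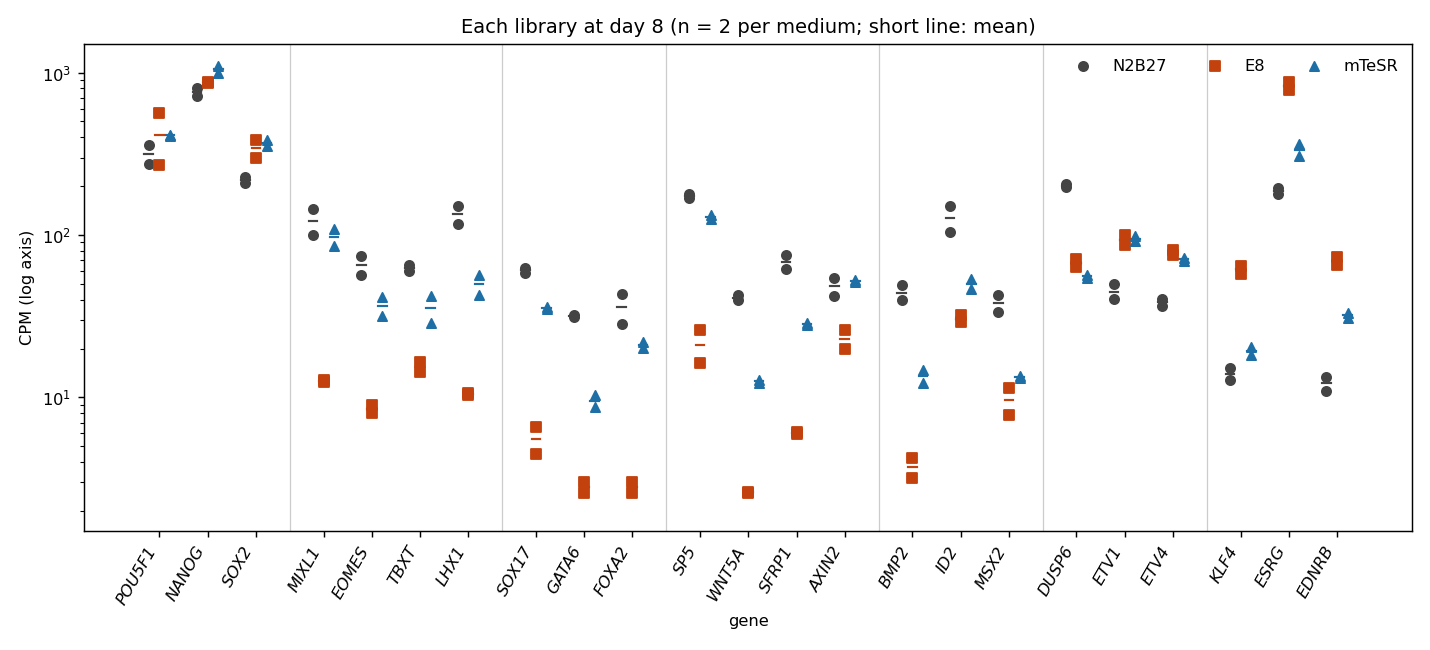
CPM on a log axis of 23 genes in each day 8 library, with grey circles for N2B27, orange squares for E8 and blue triangles for mTeSR (2 libraries each, short lines at the mean). For the genes from MIXL1 to MSX2 the E8 squares lie below both N2B27 circles, for KLF4, ESRG and EDNRB above them, and the mTeSR triangles of DUSP6 and ETV1 lie beside the E8 squares.

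The 12 genes of at least 20 CPM that fell most were APLNR, CST1, ERBB4, PRTG, GATA6-AS1, CST2, BST2, WNT5A, LINC02434, FOXQ1, LHX1 and FOXA2, taken from 203 genes that met this rule. ERBB4, a neuregulin receptor tyrosine kinase (GRCh38, chromosome 2, 211375717 to 212538841, minus strand), was at 120.1 and 86.9 CPM in N2B27 and 3.56 and 3.30 CPM in E8, a difference of 29.8-fold (-4.90 ± 0.31, adjusted p = 8.45e-13). PRTG (protogenin, chromosome 15, 55611544 to 55743152, minus strand), a cell surface protein of the immunoglobulin superfamily, was at 42.3 and 43.9 CPM against 2.44 and 0.706 CPM (-4.68 ± 0.36, adjusted p = 3.63e-11). The forkhead gene FOXQ1 was at 44.9 and 43.5 CPM against 3.56 and 3.30 CPM (-3.67 ± 0.31, adjusted p = 5.82e-10). In these genes both E8 libraries lay below 4 CPM and both N2B27 libraries above 40 CPM. BST2, which encodes the interferon-inducible tetherin, was at 19.8 and 20.6 CPM against 0.562 and 1.88 CPM (-4.09 ± 0.45, adjusted p = 4.24e-08), and the noncoding LINC02434 at 28.2 and 23.8 CPM against 1.31 and 2.35 CPM (-3.84 ± 0.30, adjusted p = 4.00e-11). All 12 calls held with each library left out in turn and with DESeq2.

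The 12 that rose most, from 151 that met the rule, were of another kind: AL117378.1, AC022784.1, EEF1A1P5, AC022018.1, AC011416.2, EEF1A1P11, LINC-ROR, AC091820.2, PIWIL2, TRIM22, AC092490.1 and AC104563.1. Of these only PIWIL2, which encodes a PIWI protein of the piRNA pathway, and TRIM22, which encodes an interferon-inducible TRIM protein, matched protein-coding genes, and 7 clone-based names had no match. PIWIL2 was at 24.4 and 23.5 CPM in E8 against 2.64 and 3.79 CPM (2.87 ± 0.27, adjusted p = 2.88e-09), and TRIM22 at 23.6 and 21.2 against 2.42 and 4.15 CPM (2.74 ± 0.32, adjusted p = 1.36e-07). LINC-ROR, a long noncoding RNA described in pluripotent cells, was at 26.2 and 32.7 CPM against 3.08 and 3.79 CPM (3.07 ± 0.35, adjusted p = 9.53e-08), and AL117378.1 was at 65.2 and 89.7 CPM against 3.52 and 7.23 CPM (3.80 ± 0.23, adjusted p = 1.81e-13). Both E8 libraries were high for these 4 genes, as they were for AC022784.1 (3.48), AC091820.2 (2.92) and AC092490.1 (2.71). For the other 5 the E8 libraries were far apart. EEF1A1P5, a processed pseudogene of the translation factor gene EEF1A1 (GRCh38, chromosome 9, 133019486 to 133020874, plus strand), was at 41.8 and 4.0 CPM in E8 and 1.76 and 2.53 CPM in N2B27, and its log2 fold change of 3.41 became 0.87 without E8 replicate 1 (adjusted p = 0.401). AC104563.1 was at 101 and 19.5 CPM in E8 against 12.1 and 9.39 CPM and went from 2.52 to 0.87 (adjusted p = 0.245). EEF1A1P11 (3.20, 1.42 without that library), AC022018.1 (3.41, 1.96) and AC011416.2 (3.37, 1.70) lost their call likewise. Reads of EEF1A1 copies cannot be told apart with certainty, so counts of these pseudogenes are uncertain.

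Over all genes called higher, 133 of 556 had more than 2 times the CPM in E8 replicate 1 than in replicate 2 (with 0.5 CPM added to both), and 8 the reverse. Of the 133, 67 were processed pseudogenes, 54 were unmatched to the annotation and 9 were protein coding. Processed pseudogenes made up 90 of the genes called higher (16.2%) and 7 of those called lower (1.06%), against 4.84% of tested genes. This share depended on the libraries and on the fit. It was 8 of 318 (2.52%) without E8 replicate 1 and 138 of 684 (20.2%) without E8 replicate 2. Without N2B27 replicate 1 or 2 it was 34 of 306 (11.1%) and 36 of 443 (8.13%). With DESeq2 it was 47 of 361 (13.0%), and with the 4 compared libraries fitted alone 17 of 320 (5.31%), near the share among tested genes. In N2B27 such a split was rare, with 13 of the 660 genes called lower more than 2 times higher in replicate 1 than in replicate 2 and 1 in reverse.

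**Figure D3:**
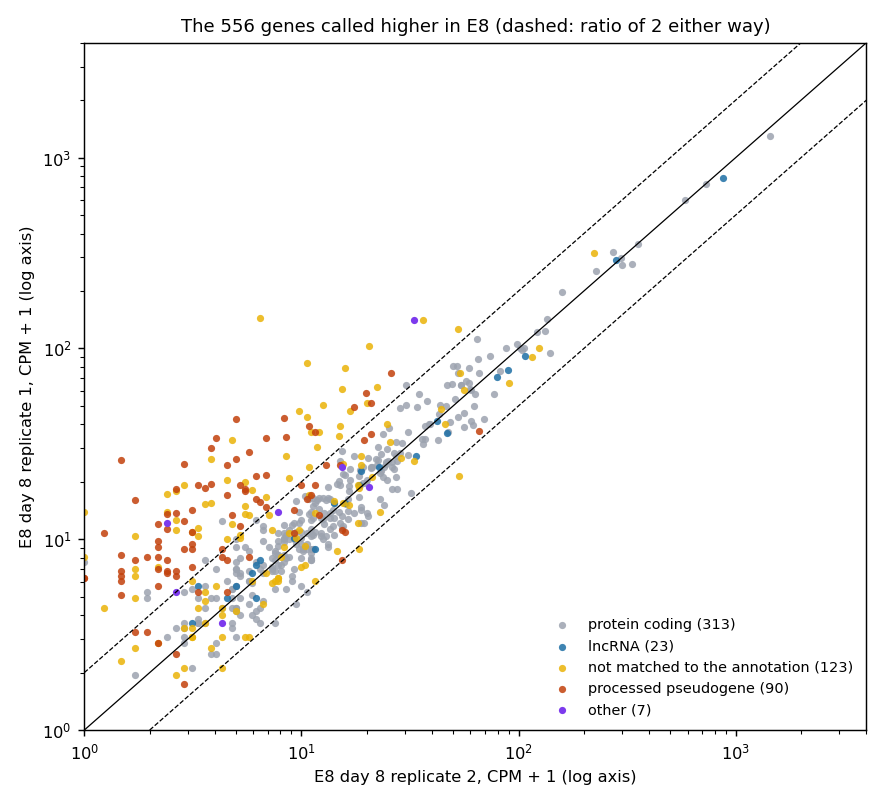
CPM plus 1 of the 556 genes called higher in E8, in E8 replicate 1 (vertical, log axis) against E8 replicate 2 (horizontal, log axis), coloured by gene class, with the diagonal and dashed lines at a ratio of 2 either way. Of the 133 genes more than 2 times higher in replicate 1 (with 0.5 CPM added), 67 are processed pseudogenes and 9 of the 313 protein-coding genes.

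Some genes that rose evenly in both E8 libraries and were chosen after their values were seen are known from pluripotent or neural crest cells. ESRG, a long noncoding RNA of primed pluripotent cells that derives from a HERVH element, was at 779 and 869.8 CPM in E8 against 179 and 195 CPM in N2B27 (2.14 ± 0.11, adjusted p = 8.24e-15) and at 104 and 93.5 CPM in naive cells. EDNRB, the endothelin B receptor, was at 73.6 and 65 CPM against 13.4 and 11 CPM (2.51 ± 0.22, adjusted p = 1.50e-09) and had 0 counts in both of these naive libraries on Geltrex. LINC00458, another long noncoding RNA of pluripotent cells, was at 90.1 and 106 CPM against 37.7 and 34.7 CPM (1.44 ± 0.14, adjusted p = 8.68e-09). All 3 were above N2B27 in both libraries and kept their call with each library left out. IQSEC2 (2.06), G0S2, an inhibitor of triglyceride breakdown (2.34), and TNFAIP6, a hyaluronan-binding protein (2.29), were also higher.

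Genes of the extracellular matrix and adhesion were lower in part, and genes of the YAP pathway were called in both directions. Of 25 tested matrix genes 7 were lower and none higher (median -0.38). Fibronectin, FN1, was at 1164 and 1024 CPM in N2B27 and 367 and 558 CPM in E8 (-1.24 ± 0.19, adjusted p = 1.69e-05). The laminin genes LAMA1 and LAMB1 (-1.15 and -1.2) and the fibrillar collagen genes COL5A1 (-3.09 ± 0.37, adjusted p = 2.33e-07) and COL5A2 (-1.44) fell, as did COL1A2 and COL3A1 given above. With DESeq2 6 matrix genes were lower, the call of COL3A1 being lost. Without E8 replicate 1 the calls of FN1 (-0.97) and LAMA1 (-0.95) fell short of the fold, which left 5. Of 19 tested integrin and adhesion genes 4 were lower, ITGA5, ITGB8, the cadherin gene CDH11 (-1.34 ± 0.20, adjusted p = 1.32e-05) and the claudin gene CLDN4, and all but CDH11 lay below 11 CPM. The calls of ITGA5 and CLDN4 were lost without E8 replicate 1 (adjusted p = 0.14 and 0.16), that of ITGA5 also without N2B27 replicate 1 (0.12) and that of CLDN4 without N2B27 replicate 2 (0.17). Of 20 tested YAP and TEAD genes 2 were lower and 1 higher, 13 lay above 0 and the median was 0.09. ANKRD1 was at 43.4 and 33.8 CPM against 2.62 and 3.53 CPM (-3.65 ± 0.33, adjusted p = 2.16e-09). AMOTL1 was at 62.3 and 43.9 against 15.9 and 14.4 CPM (-1.80 ± 0.19, adjusted p = 2.91e-08), while CTGF was higher.

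B27 in its standard form contains a retinoid, thyroid hormone and corticosterone, which E8 lacks, and genes known to respond to them were listed. Of 13 tested retinoid genes 3 were lower (median -0.86, and -0.53 without E8 replicate 1 or -1.21 without E8 replicate 2). CYP26A1, the enzyme that degrades retinoic acid and is induced by it, was at 107 and 125 CPM in N2B27 and 44.2 and 32.3 CPM in E8 (-1.59 ± 0.20, adjusted p = 6.18e-07), and the binding protein gene CRABP2 was lower by 2.13-fold (-1.09, and -0.94 without E8 replicate 1). The receptor gene RARB, which retinoic acid induces in many cells, was under 2 CPM in all 4 libraries and not called. Of 11 tested glucocorticoid and thyroid genes 2 were lower, with a median of -0.34 that was -0.10 without E8 replicate 1 and -0.53 without E8 replicate 2. DIO3, the deiodinase that inactivates thyroid hormone, was at 36.1 and 34.9 CPM against 3.18 and 4.47 CPM (-3.22 ± 0.33, adjusted p = 2.48e-08). Of the days compared this held at day 8 alone, since DIO3 was higher in E8 at day 4, at 2.09 and 3.94 CPM against 0.693 and 0.538 CPM in N2B27 (2.25, adjusted p = 0.0093), and not called at day 6 (-0.25). KLF9 was at 11.5 and 8.49 CPM against 2.81 and 4.24 CPM (-1.51 ± 0.29, adjusted p = 2.97e-04). FKBP5 and TSC22D3, which glucocorticoids induce, were not called (-0.23 and 0.13). Markers of streak, mesoderm and endoderm moved with these genes (summed levels above), and their part in the result was not tested.

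Metabolic genes differed little. TXNIP, a glucose-responsive regulator of glucose uptake, was the single call among 16 glycolysis genes, at 169 and 150.1 CPM in N2B27 against 51.3 and 37 CPM in E8 (-1.84 ± 0.15, adjusted p = 6.47e-11), and the median of that list was -0.02. Of 25 tested sterol genes 1 low gene, HSD17B7, was higher (1.31 ± 0.41, adjusted p = 0.022), and its call was lost without E8 replicate 1 (0.58, adjusted p = 0.55). It was lost without either N2B27 library as well (adjusted p = 0.17 and 0.058). HMGCS1 (-0.76) and MSMO1 (-0.76), enzymes of cholesterol synthesis, did not reach the fold. Of 16 fatty acid genes ACSS2 alone was lower (median -0.10), with an adjusted p of 0.0689 without E8 replicate 2, 0.261 without E8 replicate 1 and 0.674 without N2B27 replicate 1. Genes of ATF4 and amino acid stress (20 tested, median 0.26), hypoxia (13, median -0.07), cytochrome c oxidase (13, median 0.18) and the cell cycle (20, median -0.03) held no call, and among 14 p53 targets BTG2 was lower (-1.08 ± 0.23, adjusted p = 0.001) and lost its call without E8 replicate 2 (-0.99) or N2B27 replicate 1 (-0.77). Metallothionein and zinc genes, which respond to metals, differed by less than the fold, with all 9 above 0 and a median of 0.75, and MT1E alone was called (1.14 ± 0.13, adjusted p = 4.26e-08, and 0.999 without E8 replicate 2, just short of a call). MT1G was at 832 and 719 CPM in E8 against 450.3 and 450.3 CPM (0.78 ± 0.09, adjusted p = 2.51e-07) and MT2A at 325 and 308 against 186 and 197 CPM (0.72 ± 0.10, adjusted p = 4.31e-06), though near-identical family members share reads. Of 15 genes of oxidative stress and iron, SLC40A1, the iron exporter ferroportin, was lower at 11 and 9.03 CPM against 1.87 and 0.471 CPM (-3.0 ± 0.58, adjusted p = 3.66e-04), and NQO1 did not reach the fold (0.73). The sign of the cytochrome c oxidase median rested on E8 replicate 1, since it was -0.11 without that library, and without E8 replicate 2 it was 0.47 with COX7C called (1.11). Small medians of other lists also changed sign with 1 library left out, over ranges of -0.12 to 0.04 for neural ectoderm, -0.02 to 0.15 for FGF, -0.13 to 0.13 for the TGFβ genes, -0.03 to 0.10 for the p53 targets and -0.14 to 0.0019 for glycolysis. Others kept their sign but moved by over 1.5 times, with -0.15 to -0.05 for the cell cycle, -0.14 to -0.05 for hypoxia and -0.17 to -0.01 for fatty acid genes. The ranges were 0.00028 to 0.15 for the YAP and TEAD genes and 0.09 to 0.21 for the general pluripotency genes.

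**Figure D4:**
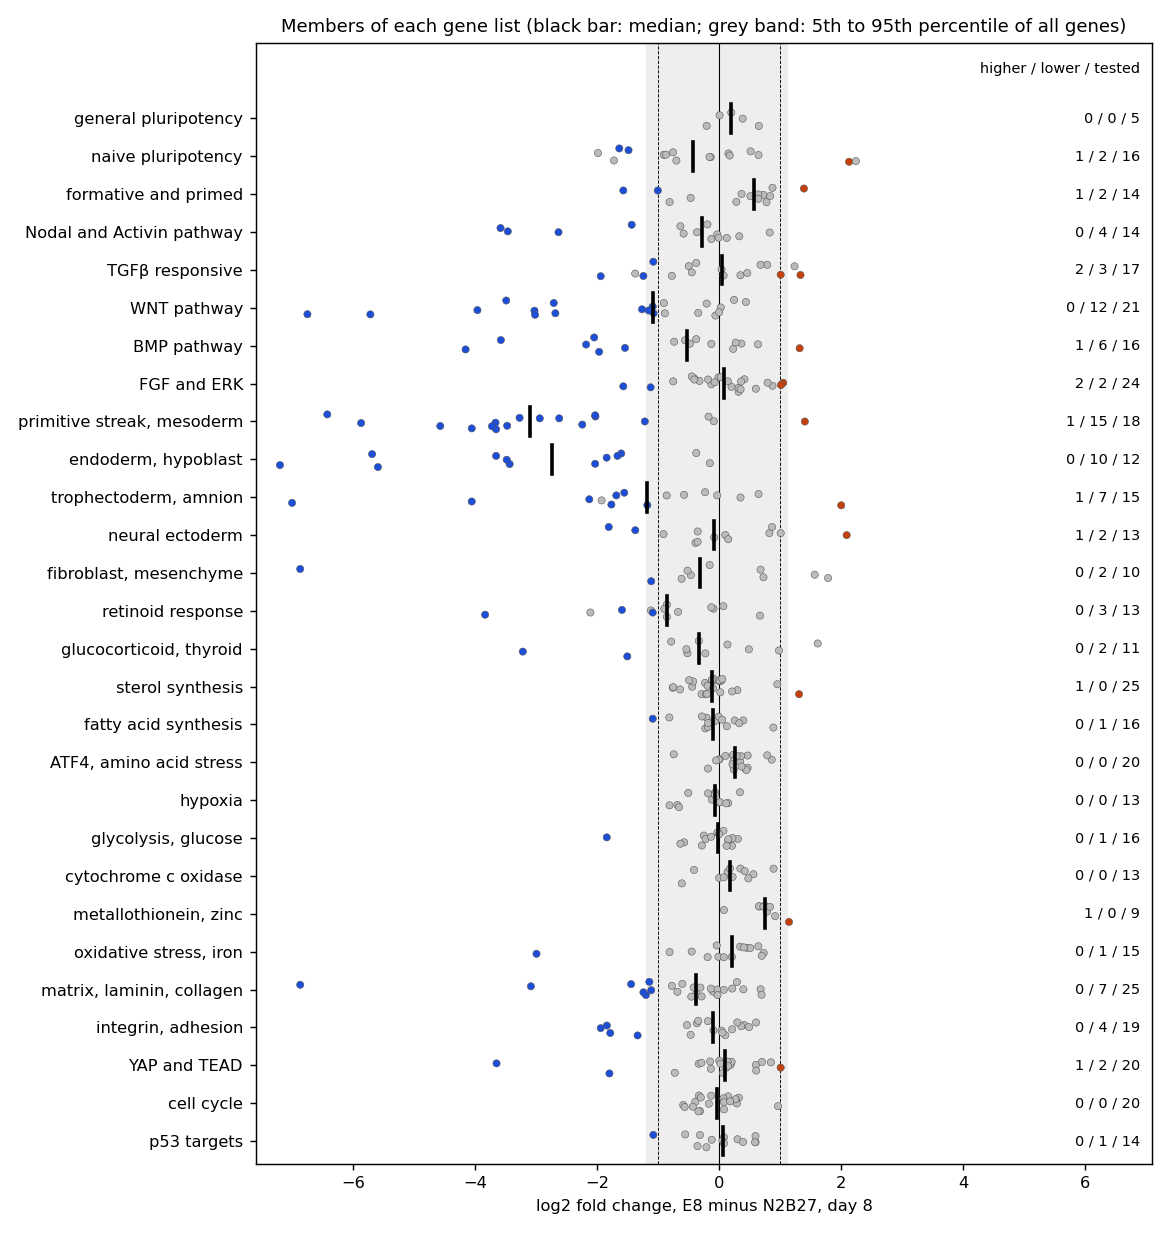
Log2 fold change of E8 against N2B27 at day 8 for each tested member of 28 gene lists, with one row per list. Blue points were called lower, orange points higher and grey points not called, black bars are list medians, dashed lines mark a log2 fold change of 1 in size, and the grey band spans the 5th to 95th percentile of all tested genes. The numbers at the right count members higher, lower and tested, and the medians of the streak and endoderm lists (-3.11 and -2.74) lie furthest from 0 (-2.79 and -2.98 without E8 replicate 1).

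Called genes numbered 415 at day 4 (2.49% of tested genes; 1.36% higher and 1.13% lower), 881 at day 6 (5.28%; 2.31% higher and 2.97% lower) and 1216 at day 8, in comparisons that share no library. Of the genes lower at day 8, 234 were also lower at day 6 (35.45% of the day 8 and 47.27% of the day 6 list), of those higher 167 were (30.04% and 43.26%), and none was called in opposite directions. With day 4, 71 lower genes (10.76% and 37.77%) and 83 higher genes (14.93% and 36.56%) were shared, and 4 were opposite. These were DIO3, described above, and ALPK2, LIPG and FGF16, named after their values were seen. LIPG went from a log2 fold change of 1.45 at day 4 to -1.57 at day 8 and FGF16 from -2.72 to 1.59, while ALPK2, at 0 counts in N2B27 and 1.46 and 0.394 CPM in E8 at day 4, was lower in E8 at day 8 (-2.29). With DESeq2 the day 8 calls of ALPK2 and FGF16 were lost. Without E8 day 8 replicate 1 or N2B27 day 8 replicate 2 that of ALPK2 was lost as well, as was that of FGF16 without E8 day 8 replicate 2 or N2B27 day 8 replicate 1. Of the 1216 genes, 1137 had the same sign at day 6 and 991 at day 4. This was not counted over all tested genes, so how far it exceeds the agreement of any tested gene is not known. The test of the change in the difference itself called 18 genes between day 6 and day 8 (0.108%), 16 of them lower (0.096%) and 2 higher (0.012%), and 239 between day 4 and day 8 (1.43%), 163 lower (0.978%) and 76 higher (0.456%). The split of the day 6 changes rested on E8 day 8 replicate 2, without which 53 were higher and 49 lower, and without a filter on low counts it was 40 and 66.

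Of the 18 streak and mesoderm genes 3 were lower at day 4 (TBXT, MIXL1 and EOMES) and 8 at day 6, and of the 12 endoderm genes none and 5. The WNT target SP5 was lower from day 4. MIXL1 was at 20 and 20.2 CPM in naive cells, at 28.4 and 31.2 CPM in N2B27 and 3.97 and 4.34 CPM in E8 at day 4, and at 91.9 and 105 against 14.7 and 13 CPM at day 6. SP5 was at 24.1 and 25.6 CPM in N2B27 and 2.51 and 2.56 CPM in E8 at day 4 and at 88.8 and 87 against 18.1 and 18.4 CPM at day 6. For both genes the log2 fold changes at day 4 (-2.83 and -3.28) did not pass the test of a difference from those at day 8 (-3.27 and -3.02). LHX1, ERBB4 and PRTG were called from day 6. LHX1 was at 2.43 and 2.69 CPM in N2B27 and 1.46 and 2.37 CPM in E8 at day 4, and at 41.3 and 45.3 against 3.86 and 3.41 CPM at day 6, so that its difference changed by -3.26 from day 4 to day 8 (adjusted p = 0.008). ERBB4 was at 1.04 and 0.358 CPM in N2B27 and 0.627 and 0.394 CPM in E8 at day 4 and at 26.9 and 21.4 CPM against 0.724 and 0.455 CPM at day 6.

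The difference of 18 genes changed between day 6 and day 8, and those named here that stand on no list were chosen after their values were seen. ANKRD1 was at 7.29 and 7.66 CPM in N2B27 and 6.28 and 5.46 CPM in E8 at day 6 and rose to 43.4 and 33.8 CPM in N2B27 while E8 stood at 2.62 and 3.53 CPM at day 8 (change in the difference -3.30 ± 0.48, adjusted p = 8.52e-04). LIFR, FAM184A, HAPLN1, P3H2 and ADAM19 were already lower at day 6 and ID2, TBX3 and COLEC12 were not, and all 8 widened, with changes from -2.06 to -1.36. GATA3 changed sign: it was at 18.1 and 18.1 CPM in N2B27 and 28.7 and 28.9 CPM in E8 at day 6, and at 39.4 and 34 against 10.3 and 14.8 CPM at day 8 (-2.22 ± 0.32, adjusted p = 8.52e-04). BMP4 was higher in E8 at day 6, at 216 and 213 CPM against 77.7 and 81 CPM, and N2B27 then approached it (-1.07). The 2 genes that moved towards E8 were USP44, a ubiquitin hydrolase gene that was at 162 and 163 against 199 and 198 CPM at day 6 and 116 and 117 against 297 and 295 CPM at day 8 (1.06 ± 0.17, adjusted p = 0.002), and PROM1 (1.02), which encodes CD133.

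The difference of the LEFTY genes narrowed. LEFTY1 was at 131 and 129 CPM in N2B27 and 27.2 and 26 CPM in E8 at day 4 (log2 fold change -2.29) and did not differ by a call at day 6 (-0.27) or day 8 (0.12). LEFTY2 was at 52.5 and 59.3 CPM against 1.25 and 2.37 CPM at day 4 and 34 and 32.4 against 14.2 and 15 CPM at day 6, and at day 8 both E8 libraries still lay below those in N2B27, at 30.8 and 25.3 against 17.6 and 19.8 CPM, without a call (-0.58). The changes from day 4 to day 8 were 2.41 (adjusted p = 5.08e-07) and 4.33 (adjusted p = 9.68e-07). KLF4 separated in the other way, since it was at 26 and 27.4 CPM in N2B27 and 45.1 and 43.6 CPM in E8 at day 4, and at 8.75 and 12.1 against 43.5 and 41 CPM at day 6, below its naive level in both media (1.4 from day 4 to day 8). P4HA1 and PDK1, both induced by low oxygen, were lower in E8 at day 6 (-1.48 and -1.60) and at day 8 stood at -0.82 and -0.66, without a call (change from day 6 0.66, adjusted p = 0.019, under the fold, and 0.94, adjusted p = 0.19).

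**Figure D5:**
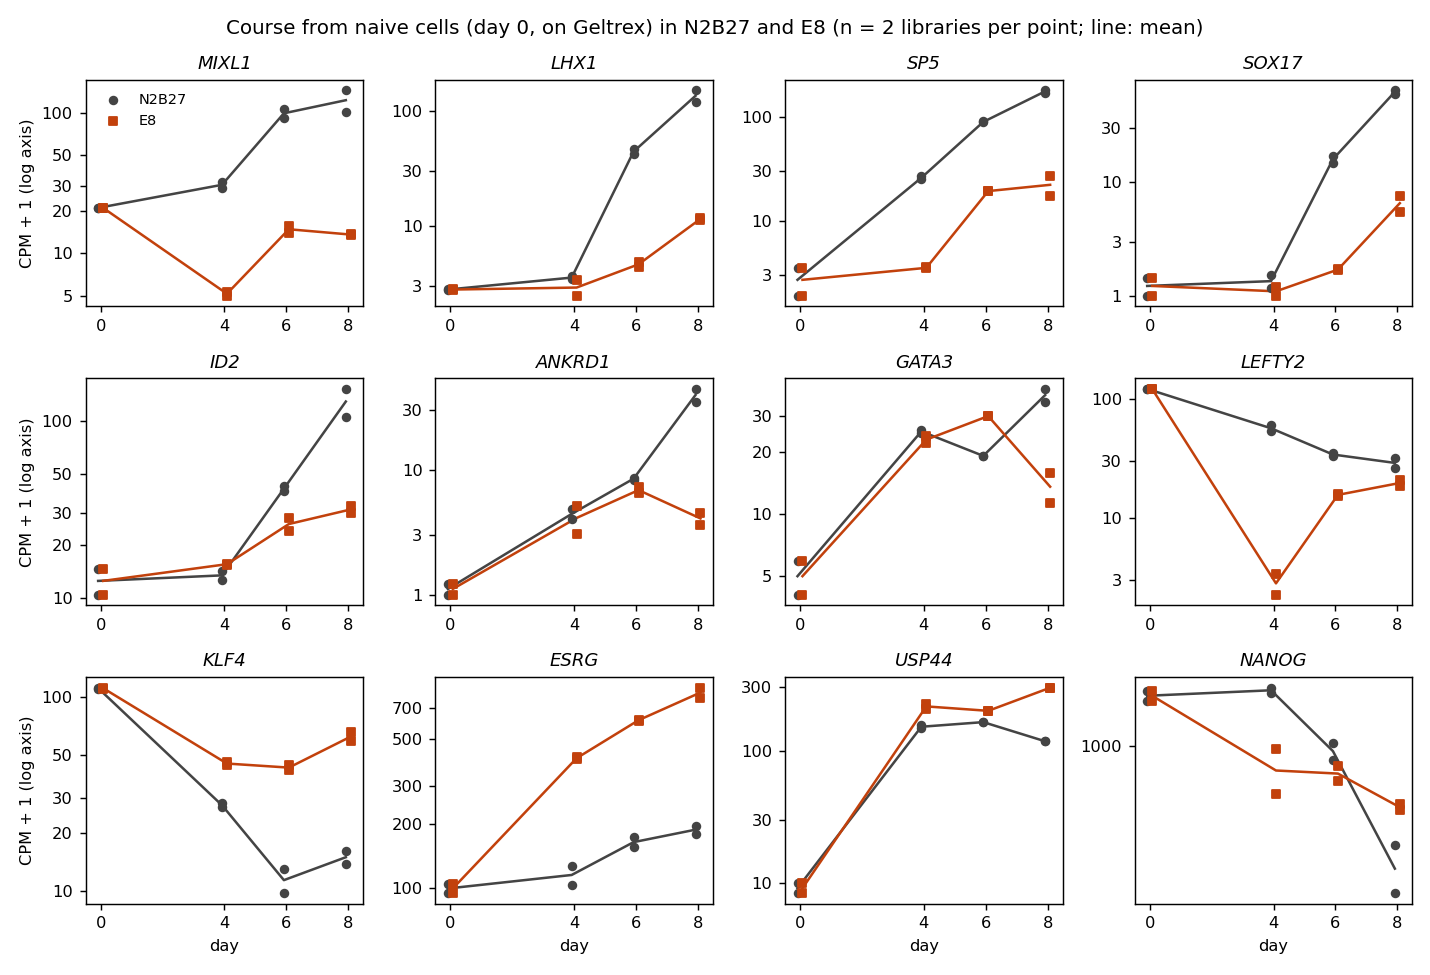
CPM plus 1 on a log axis against day for 12 genes, from naive cells in PXGL on Geltrex (day 0) to days 4, 6 and 8 in N2B27 (grey circles) and E8 (orange squares), with 2 libraries per point and lines through the means. MIXL1 and SP5 are apart from day 4, LHX1 and SOX17 from day 6, and ANKRD1 and ID2 mainly at day 8, LEFTY2 narrows, and KLF4 and ESRG stay higher in E8.

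In mTeSR, the other growth factor medium, fewer streak and endoderm genes were called lower against N2B27 than in E8. Comparisons with N2B27 share its libraries, so values are given side by side, and E8 was tested against mTeSR directly (885 genes called, 5.31%; 2.79% higher and 2.51% lower in E8). The 466 higher and 419 lower genes became 187 and 244 without E8 replicate 1, 277 and 377 without mTeSR replicate 1, 225 and 247 without mTeSR replicate 2, and 253 and 263 with the compared libraries fitted alone, so that the balance of directions was not stable. MIXL1 was at 109 and 85.9 CPM in mTeSR, which made it -0.33 against N2B27, not called, and E8 differed from mTeSR by -2.94 ± 0.21, adjusted p = 3.62e-11. SOX17 was at 35.8 and 35.3 CPM (E8 against mTeSR -2.66 ± 0.26, adjusted p = 2.89e-08) and SP5 at 132 and 126 CPM (-2.59 ± 0.23, adjusted p = 2.13e-09). All 3 were lower in E8 than in mTeSR and were not called between mTeSR and N2B27. CER1 was at 39.6 and 33 CPM in mTeSR, above both E8 libraries (-3.79 ± 0.36, adjusted p = 9.08e-08). Of the 18 tested streak genes 11 were lower and 2 higher in E8 than in mTeSR, and 7 of the 12 endoderm genes were lower, while against N2B27 (634 genes called, 3.8%; 1.65% higher and 2.15% lower) mTeSR had 5 and 4 lower.

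Other genes did not differ by a call between E8 and mTeSR. DUSP6 was at 54.6 and 56.5 CPM in mTeSR, close to E8 (0.28 ± 0.16, adjusted p = 0.27), and ETV1 at 91.8 and 98.5 CPM (-0.03 ± 0.13, adjusted p = 0.92). S100A14, a calcium-binding protein gene, was at 6.79 and 6.16 CPM (0.04 ± 0.30, adjusted p = 0.96), and ANKRD1 at 1.36 and 1.68 CPM, at or below E8 (0.99 ± 0.50, adjusted p = 0.20). IQSEC2 at 90.9 and 111 CPM and NTS at 61.6 and 47.3 CPM were near their E8 levels as well, with differences of 0.20 and 0.00 that were not called. In this set E8 and mTeSR lay on the same side of N2B27. KLF4, at 18.2 and 20.4 CPM in mTeSR, was higher in E8 than in either other medium (1.67 ± 0.19, adjusted p = 1.30e-07), as were EDNRB (30.9 and 33.3 CPM, 1.11 ± 0.20, adjusted p = 3.95e-04) and ESRG (306 and 361 CPM, 1.30 ± 0.11, adjusted p = 6.37e-10). The metallothionein gene MT1E was at 102 and 95.4 CPM in mTeSR, below both E8 libraries (1.62 ± 0.13, adjusted p = 1.80e-10), and P4HA1 was at 438 and 447 CPM, above both (-1.31 ± 0.09, adjusted p = 2.70e-11). The naive gene NLRP7 was at 756 and 873 CPM in mTeSR against 297 and 323 CPM in E8 (-1.39 ± 0.11, adjusted p = 7.51e-11).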

How the data were processed

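The authors deposited estimated counts per gene from 3′ tag reads as whole numbers without normalisation, made with the nf-core rnaseq workflow and tximport. The submitters' processing notes name FastQC 0.11.9, Salmon 1.9.0, STAR 2.7.10a, DESeq2 and hg38. Differences were tested with edgeR 4.0.16 (R 4.3.3). After filterByExpr 16674 genes remained (99.646% of counts). Library sizes were TMM-scaled, also for CPM, and a single quasi-likelihood fit covered all 38 libraries in 19 groups of 2. A call needed a Benjamini-Hochberg adjusted p under 0.05 over all tested genes and a log2 fold change over 1 in size. The scripts were tested on simulated data.

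Named genes are the 12 with the largest rise and the 12 with the largest fall (called, at least 20 CPM in the higher medium, no overlap), members of 28 gene lists, and genes said to be chosen after their values were seen. Samples, lists and tests were chosen with earlier results of these data known. Gene classes and positions are from GENCODE (GRCh38), where 14426 tested symbols matched 1 gene. Alternatives were DESeq2 1.42.0, other scalings and filters, the compared libraries fitted alone, a replicate block, and each library left out. Some members of the lists are counted but not reported here by name.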

Additional observations from a re-analysis of the deposited data

Results flagged for a closer look

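The difference between E8 and N2B27 at day 8 was tested against that at day 6 and at day 4 with an interaction term in edgeR, and the genes below passed it. Values are changes in the log2 fold change of E8 against N2B27 up to day 8, and a negative value means that E8 fell relative to N2B27.

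From day 6, 18 genes passed. These changed as follows: ACKR3 by -2.35, ADAM19 by -1.42, ANKRD1 by -3.30, BMP4 by -1.07, COLEC12 by -2.06, DAB2 by -1.24, DIO3 by -2.97, DSCAM by -3.02, FAM184A by -1.71, GATA3 by -2.22, HAPLN1 by -1.58, ID2 by -1.37, LIFR by -1.36, P3H2 by -1.5, PROM1 by 1.02, S100A14 by -2.18, TBX3 by -1.62 and USP44 by 1.06. This count ranged from 8 to 102 when 1 library was left out.

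From day 4, 239 genes passed, and those named in the text are given here. Of the genes named for the size of their day 8 difference, these changed: APLNR by -4.62, ERBB4 by -4.45, PRTG by -4.88, GATA6-AS1 by -8.58, WNT5A by -2.34, LINC02434 by -2.79, LHX1 by -3.26 and AL117378.1 by 1.96. Further named members of the lists that passed changed as follows: AMOTL1 by -1.73, ANKRD1 by -3.52, AXIN2 by -1.01, BMP2 by -3.77, CDX1 by -3.73, COL5A2 by -1.82, CRABP2 by -1.28, CXCR4 by -1.95, DIO3 by -5.47, EGR1 by -1.85, ETV1 by 1.15, EVX1 by -3.97, FN1 by -1.06, GATA3 by -1.42, HAS2 by -1.44, ID2 by -2.27, ID3 by -1.22, KHDC1L by -1.17, KLF4 by 1.4, KLF9 by -1.48, LAMA1 by -1.65, LEF1 by -5.44, LEFTY1 by 2.41, LEFTY2 by 4.33, MSX2 by -2.06, NOG by -2.97, PDGFRA by -2.41, RSPO3 by -9.29, SFRP1 by -3.26, SUSD2 by -1.06 and TBX3 by -2.21. The genes chosen after their values were seen that passed were ADAM19 by -1.84, ALPK2 by -7.36, DAB2 by -1.11, EDNRB by 1.36, FAM184A by -2.75, FGF16 by 4.31, HAPLN1 by -2.18, IQSEC2 by 1.38, LIFR by -2.39, LIPG by -3.02, P3H2 by -3.57 and S100A14 by -2.18. The values of GATA6-AS1, RSPO3 and ALPK2 are fitted ones, since both N2B27 libraries of day 4 held 0 counts of them. The LEFTY genes may share reads, and CDX1, EVX1, DIO3, LEF1, LHX1 and ERBB4 lay below 5 CPM in all 4 libraries of day 4. The causes of these changes were not tested.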

How the results depend on the processing

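Across 13 other settings, 122 of 173 named genes kept their direction and their status, called or not called, in each. The 122 include genes that were not called in any setting, such as NODAL and NANOG. The count of genes called at day 8 (1216) was 839 with DESeq2, 838 with the 4 libraries fitted alone and 1220 with library totals, where 38.2% of calls were higher against 45.72%. It ranged from 761 to 1398 with 1 library left out. The count of changes from day 6 (18) was 30 with RLE scaling, 106 without a filter and 8 with the compared libraries alone, and 8 to 102 with 1 library left out. That of changes from day 4 (239) ranged from 139 to 391, and that of E8 against mTeSR (885) was 516 with the compared libraries alone and 431 to 1169 with 1 left out. Replicate numbers did not pair the day 8 libraries (r = -0.1045 across 9535 genes, which are not independent). With the replicate block 1208 genes were called, and with the block in the 4 libraries alone 868. The crossed pairing, chosen after seeing the data, called 950.

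Some uncalled values changed sign: LIN28A was -0.06247 with library totals and -0.1049 to 0.1232 with 1 library left out, and over such fits LEFTY1 was -0.06205 to 0.2837, DPPA3 -0.3587 to 0.01033, PAX6 -0.2641 to 0.05322 and POU5F1 -0.2364 to 0.8211. Of the 110 lost calls of named genes 65 came from leaving out a library, and 29 of these without E8 replicate 1. The causes were not tested. With 2 libraries a medium, low genes carry wide errors.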
